A study of Mus musculus with 68 samples.

Results

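Complement is a cascade of plasma and tissue proteins that tags cells and debris, draws in leukocytes and can lyse membranes. C1q, built of A, B and C chains, starts the classical pathway, while factor B drives the alternative pathway and the C1 inhibitor SERPING1 holds the first enzymes in check. Macrophages are a known source of C1q, and the receptors for the fragments C3a and C5a sit on myeloid cells. The values here are the levels of these genes in mammary tumours of 1 group of mice, and the question is which of them followed macrophages, fibroblasts or epithelium from tumour to tumour.

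The set was fixed by name and holds 9 genes: C1qa, C1qb, C1qc, C3, C4b, Cfb, Serping1, C3ar1 and C5ar1. Of these, 7 had a probe set annotated to that gene alone. C3 had none in the annotation used and was not analysed here. C4b was reached only through 1 probe set annotated to C4a and C4b together, so its values are given as those of the shared C4a/C4b probe set and not as C4b. The 7 genes and the shared probe set cover 13 probe sets. All 8 passed the filter on low values, among 12562 of 18194 measured genes that did, and where a gene had several probe sets, the one with the highest mean stood for it.

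The tumours arose spontaneously in mice with the MMTV-PyMT transgene, in which the mouse mammary tumour virus promoter drives the polyoma middle T oncogene mainly in mammary epithelium. The animals were offspring of (NZB x PyMT) hybrids backcrossed to FVB, and there is no control group. Age, sex and the number of tumours per animal are not given in the labels. Of 68 arrays, the 56 whose 18S ribosomal RNA controls averaged below 8 were used, each with an animal number of its own. They fell into array sets 1, 3 and 4 of 39, 9 and 8 arrays, found from the values and not named in the labels. The animals carry no treatment labels, and the arrays were compared across the range of each marker score. Epithelial markers stood high throughout: Krt8 had a mean of 12.43 (log2) and Epcam, a surface protein of epithelial cells, 11.82.

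Promoter sequences are shown for the members that had a window in the RefSeq table of GRCm38.p6 and whose levels are described below. These are the C1q chains C1qb and C1qc, which moved almost as one, and the receptors C3ar1 and C5ar1. The receptors did not move together by their probe sets with the highest means. Each window runs from 250 bases before to 50 bases after the gene's start, 5′ to 3′ on the minus strand. C1qb lies at chr4:136886151-136886450, C1qc at chr4:136892865-136893164, C3ar1 at chr6:122856108-122856407 and C5ar1 at chr7:16259289-16259588. Capitals mark GAGGAA, the core bound by the myeloid factor PU.1, on either strand.
C1qb: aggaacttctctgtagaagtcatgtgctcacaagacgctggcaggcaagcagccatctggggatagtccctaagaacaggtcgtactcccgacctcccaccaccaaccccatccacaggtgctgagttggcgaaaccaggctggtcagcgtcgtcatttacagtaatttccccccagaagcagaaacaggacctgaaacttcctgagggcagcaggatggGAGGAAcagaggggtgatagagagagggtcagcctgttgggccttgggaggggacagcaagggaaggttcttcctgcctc
C1qc: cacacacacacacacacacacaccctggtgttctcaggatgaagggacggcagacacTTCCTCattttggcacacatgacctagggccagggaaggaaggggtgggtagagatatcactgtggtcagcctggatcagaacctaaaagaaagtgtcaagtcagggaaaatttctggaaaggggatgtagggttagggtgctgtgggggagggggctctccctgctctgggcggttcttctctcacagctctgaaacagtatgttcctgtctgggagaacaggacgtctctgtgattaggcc
C3ar1: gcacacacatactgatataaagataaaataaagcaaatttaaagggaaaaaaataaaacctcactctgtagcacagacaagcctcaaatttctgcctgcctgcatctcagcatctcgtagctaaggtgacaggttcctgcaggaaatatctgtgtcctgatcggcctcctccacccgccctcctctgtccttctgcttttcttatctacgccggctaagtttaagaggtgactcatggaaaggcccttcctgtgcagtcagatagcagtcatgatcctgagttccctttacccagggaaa
C5ar1: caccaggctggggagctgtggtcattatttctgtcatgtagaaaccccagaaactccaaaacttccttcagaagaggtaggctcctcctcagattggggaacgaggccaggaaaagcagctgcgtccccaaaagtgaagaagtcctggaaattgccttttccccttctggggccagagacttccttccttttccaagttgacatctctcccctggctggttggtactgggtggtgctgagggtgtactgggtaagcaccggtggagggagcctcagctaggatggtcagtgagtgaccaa
C1qb had 1 match, at base 221 of the window, and C1qc 1 match at base 58, where it reads TTCCTC. C3ar1 and C5ar1 had 0 matches in these windows. The letters were also present in 28.3% of all 32817 promoter windows of this length. The STAT motif TTCNNNGAA (8.29% of windows), a paired interferon regulatory factor motif (3.43%) and an NF-kB-like motif (1.47%) had 0 matches in the 4 windows. C1qa, Cfb and Serping1 were not in the table. The 3 C1q genes all lie on chromosome 4, Cfb and C4a/C4b on chromosome 17, Serping1 on 2, C3ar1 on 6 and C5ar1 on 7.

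The C1q chains varied together and over a wide range. C1qa ranged from 8.69 to 11.33 with a median of 10.39 (log2 RMA value, SD 0.50, n = 56), a 6.21-fold span. C1qb ranged from 8.37 to 11.13 with a median of 10.22 (SD 0.54). C1qc ranged from 7.28 to 9.72 with a median of 8.83 (SD 0.49). The highest tumour was 3296 for all 3 chains and the lowest was 3854R, which also stood highest and lowest on the macrophage score. Tumour 3296 was highest on the fibroblast score as well. Tumour 3854R ranked 55 of 56 on the fibroblast score and was lowest on the epithelial score, so neither tumour sets the scores apart. In 46 of the 56 tumours all 3 chains lay on the same side of their medians.

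Serping1 had the widest fold range of the 8 features, 18.1-fold from 7.18 in tumour 3854R through a median of 9.76 to 11.36 in tumour 3296 (SD 0.73). Tumour 3739 was nearly as low at 7.33, and the next lowest stood at 8.62, so that 2 tumours lay apart from the rest. Cfb, the protease precursor of the alternative pathway convertase, ranged from 6.51 to 9.51 with a median of 8.33 (SD 0.73), without such a gap. Its highest tumour, 3864, ranked 16 on the macrophage score. The shared C4a/C4b probe set ranged from 9.36 to 12.43 with a median of 10.58 (SD 0.52). Its highest tumour, 3572, was followed at a distance by the next, at 11.51, and was the lowest of all 56 for C3ar1.

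The receptors varied less. C3ar1, the receptor for C3a, ranged from 6.49 to 7.89 with a median of 7.10 (SD 0.35), a 2.64-fold span. C5ar1, the receptor for C5a, ranged from 4.76 to 6.34 with a median of 5.50 (SD 0.32), close to the median of all values on the arrays, 5.42. By SD, Cfb ranked 449, Serping1 455, C1qb 946, C4a/C4b 1012, C1qa 1124, C1qc 1210, C3ar1 2584 and C5ar1 3252 among the 12562 genes tested.

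**Figure D1:**
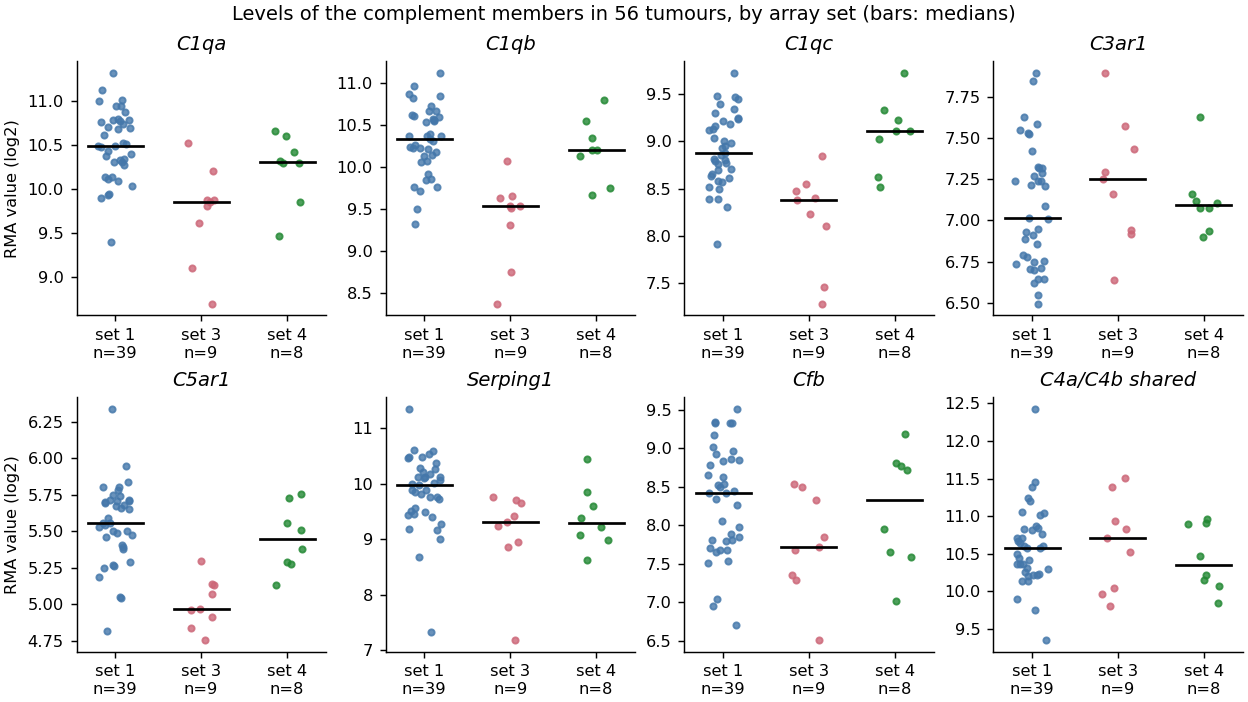
Level of each member (vertical axis, log2 RMA value, a separate scale per panel) in each of 56 tumours, by array set (horizontal axis), with bars at the medians. Medians of the C1q chains, C5ar1 and Cfb were lowest in array set 3, while those of C3ar1 and C4a/C4b were not. Serping1 had a median of 9.30 in sets 3 and 4, against 9.99 in set 1, and 2 tumours far below the rest.

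Part of this spread ran between array sets. Mean C1qb was 10.32 ± 0.41 (SD, n = 39) in array set 1, 9.38 ± 0.51 (n = 9) in set 3 and 10.21 ± 0.37 (n = 8) in set 4. Mean C5ar1 was 5.55 ± 0.28, 5.01 ± 0.17 and 5.45 ± 0.22 in the same order, and the highest of set 3, 5.29, lay below the median of set 1, 5.56. Mean C3ar1 was 7.08 ± 0.37, 7.23 ± 0.38 and 7.12 ± 0.22, so the sets differed by less than the spread within them. Set 3 holds 8 arrays whose titles end in R, a mark the labels do not explain. Array set therefore entered every fit as a block, and correlations are given within sets as well. In the 12 arrays left out, 7 of the 8 medians were lower than in the 56, such as 9.25 for C1qa and 8.64 for Serping1, while that of C5ar1 was higher, 5.64.

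Macrophage, fibroblast and epithelial levels were read as scores, each the mean z-score of the marker list's measured genes, scaled to an SD of 1. The macrophage list (13 of 14 genes measured) was led by Tyrobp, Mpeg1, Ms4a7 and Ctss, the fibroblast list (13 of 14) by the matrix genes Col3a1, Lum, Loxl1 and Dpt, and the epithelial list (14 of 14) by Cldn3, Krt18, Cldn7 and Krt8. The members of each list had a median pairwise correlation of 0.63, 0.72 and 0.38. Macrophage and fibroblast scores rose together, with Pearson r = 0.832 and Spearman rho = 0.826 (permutation p = 1e-05 for both, the smallest the draws can give, n = 56; adjusted over 55 pairs of scores, 3.67e-05 and 4.23e-05). The correlation was 0.783 without the 2 tumours farthest from the median, and 0.813, 0.867 and 0.966 within the sets. Fewer cells of a type and less RNA per cell cannot be told apart in such whole-tumour RNA.

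Taken 1 score at a time, 6 of the 8 features rose with macrophages and 6 with fibroblasts. Over all genes, 13.6% were called higher on the macrophage score and 13.4% on the fibroblast score (limma, Benjamini-Hochberg adjusted p under 0.05). On both scores they were C1qa, C1qb, C1qc, C3ar1, Serping1 and Cfb, with macrophage slopes from 0.33 to 0.59 log2 per SD of the score and fibroblast slopes from 0.23 to 0.61. The call of Cfb on the fibroblast score (0.26, limma adjusted p = 0.0282) was lost without tumour 3854R (adjusted p = 0.0865). Neither C5ar1 (0.06, adjusted p = 0.275 on macrophages) nor C4a/C4b (0.03, adjusted p = 0.828) passed, but C5ar1 did on macrophages without array set in the fit (0.11, 0.031) or with a Gapdh covariate for RNA quality (0.10, 0.0266). On the epithelial score alone, 0 of the 8 were called, against 6.58% of all genes called higher, and the lowest adjusted p was 0.0619, for C1qa. Without array set in the fit 4 of the 8 were called on it, C1qa (0.19, adjusted p = 0.0117), C1qb (0.21, 0.00757), C1qc (0.24, 0.000687) and C5ar1 (0.11, 0.0292), while calls over all genes rose from 1445 to 5320. The median macrophage slope of the 8 features was 0.38, against 0.00 over all 12549 genes.

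C1qa followed the macrophage score with r = 0.836 and rho = 0.821, C1qb with 0.809 and 0.786, and C1qc with 0.760 and 0.718 (each permutation p = 1e-05, the smallest the draws can give; adjusted over 88 relations 3.38e-05 for r and 3.83e-05 for rho). Without the 2 tumours farthest from the median score, r was 0.791, 0.758 and 0.695. Within array set 1 the 3 values were 0.802, 0.828 and 0.822, and in sets 3 and 4 they ran from 0.864 to 0.983. With the fibroblast score the chains had r = 0.708, 0.718 and 0.688 and rho = 0.684, 0.689 and 0.637 (same p), 0.700, 0.667 and 0.649 without 2 tumours and 0.686 to 0.953 within the sets. C1qa, C1qb and C1qc lay on the same side of the median as the macrophage score in 46, 42 and 40 of the 56 tumours, and as the fibroblast score in 48, 46 and 42. Serping1 followed both scores. Its r and rho were 0.881 and 0.835 with fibroblasts (same p), 0.829 without 2 tumours and 0.920, 0.869 and 0.795 within the sets. With macrophages they were 0.828 and 0.848 (same p), 0.776 without 2 tumours and 0.805, 0.744 and 0.880 within the sets, and it shared the side of the median with macrophages in 48 tumours and with fibroblasts in 46. C3ar1 had r = 0.697 and rho = 0.700 with macrophages over all 56 tumours (same p), 0.694 without 2 tumours, but 0.876, 0.803 and 0.768 within the sets.

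**Figure D2:**
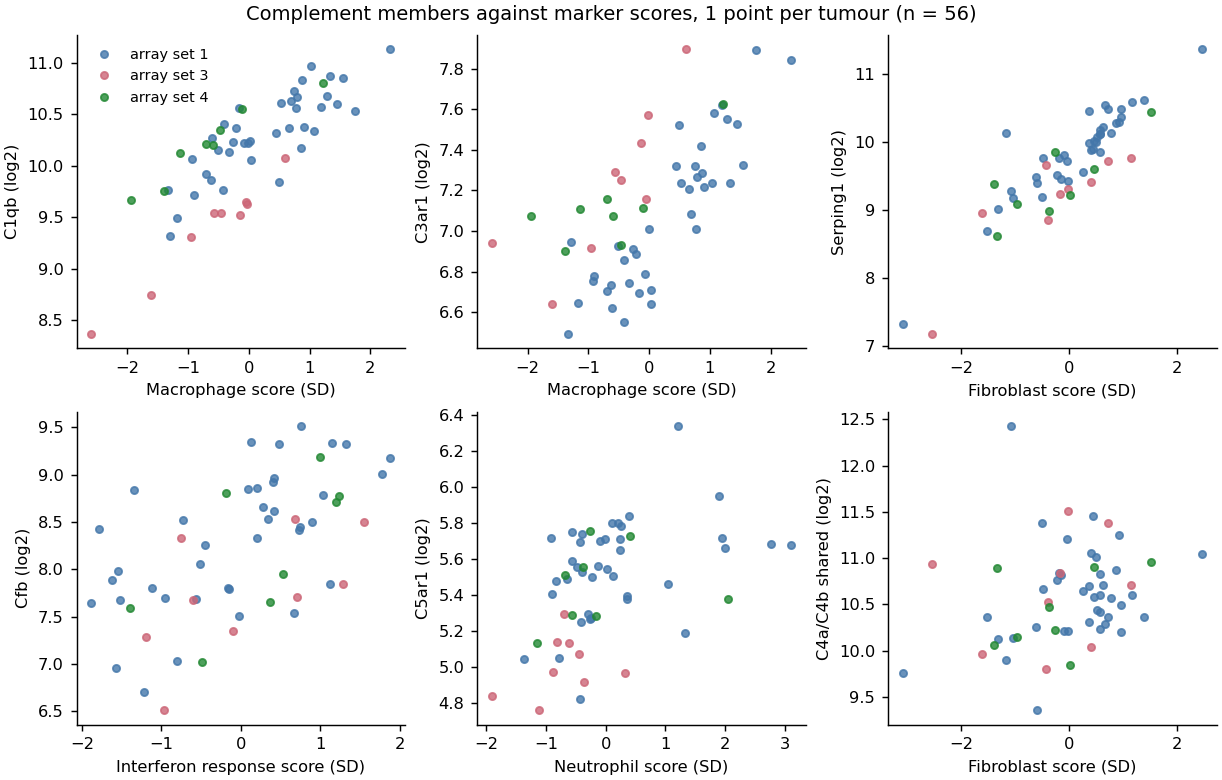
Level of 6 features (vertical axes, log2 RMA value) against a marker score (horizontal axes, SD), 1 point per tumour, coloured by array set, n = 56. C1qb and C3ar1 rose with the macrophage score, Serping1 with the fibroblast score and Cfb with the interferon score, while C5ar1 (r = 0.472 with neutrophils) and C4a/C4b (0.248 with fibroblasts) scattered more widely.

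Because both scores rise together, the 3 scores were then fitted together, so that each slope is at a fixed level of the other 2 scores. Of the 8 features, 5 were called on the macrophage score, C1qa, C1qb, C1qc, C3ar1 and Cfb, all higher, against 2.14% of all genes. On the fibroblast score 1 of the 8, Serping1, was called, against 1.94% of all genes called higher. On the epithelial score the 3 C1q chains were called higher, against 7.61% of all genes. C5ar1 and C4a/C4b were called on none of the 3. Median slopes of the 8 features were 0.27, 0.10 and 0.09 log2 per SD on macrophages, fibroblasts and epithelium, against -0.00200, 0.00192 and -0.00192 over all genes.

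C1qa rose by 0.29 log2 per SD of the macrophage score (SE 0.05, limma adjusted p = 0.000321). Slopes of the other chains were alike, 0.26 for C1qb (SE 0.05, adjusted p = 0.000732) and 0.28 for C1qc (SE 0.05, adjusted p = 0.000136). Fibroblast slopes of the chains were 0.09 to 0.15 and passed for none, with the lowest adjusted p, 0.0731, for C1qb. The call of C1qb was reached when each score used every second gene of its list (0.19, adjusted p = 0.0143). At fixed macrophage and fibroblast scores, the epithelial slopes were 0.16 for C1qa (adjusted p = 0.00122), 0.11 for C1qb (0.0128) and 0.12 for C1qc (0.00611). The last 2 moved to 0.20 and 0.23 without array set in the fit. The epithelial slope of C1qb came from 1 of its 3 probe sets: the other 2, both of the kind whose probes can match several transcripts, had slopes of 0.00 and -0.01 (adjusted p = 0.997 and 0.878), but macrophage slopes of 0.35 and 0.37 (adjusted p = 1.59e-08 and 8.32e-08). C1qa and C1qc each have 1 probe set, so this could not be checked for them.

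C3ar1 was the 1 member whose macrophage and fibroblast slopes differed after adjustment over all genes. The macrophage slope was 0.40 (SE 0.05, adjusted p = 1.62e-07) and the fibroblast slope -0.08 (SE 0.05, adjusted p = 0.424). The difference of the 2 slopes was 0.48 (95% interval 0.29 to 0.67, adjusted p = 0.00341), a difference called for 1 of the 8 features and for 0.447% of all genes. Its other 2 probe sets had macrophage slopes of 0.41 and 0.44 (adjusted p = 1.48e-09 and 6.5e-09). Without array set in the fit the macrophage slope was 0.23 (adjusted p = 0.0184) and the difference 0.20 (adjusted p = 0.419).

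Serping1, the inhibitor, had a fibroblast slope of 0.52 (SE 0.08, adjusted p = 8.21e-06) and a macrophage slope of 0.11 (SE 0.08, adjusted p = 0.589). The difference of the slopes was -0.41 (95% interval -0.71 to -0.10) and did not pass over all genes (adjusted p = 0.241). Leaving out the 2 tumours farthest from the median of each score took the fibroblast slope to 0.32 (adjusted p = 0.0139), and adding adipocyte, endothelial and mast cell scores to 0.33 (adjusted p = 0.0106). The adipocyte and mast cell scores moved with Serping1, with correlations of 0.75 and 0.79 after centring on array sets. Tumour 3739, lowest on the fibroblast score and also low on the macrophage score (-1.18), stood at 7.33 for Serping1, 10.09 for C1qa, 9.50 for C1qb and 8.39 for C1qc, all below their medians.

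Cfb had the steepest macrophage slope, 0.57, with the widest error (SE 0.16, adjusted p = 0.0397). The call was lost in array set 1 alone (0.54, adjusted p = 0.0508), with every second marker gene (0.49, 0.0573), with no filter on dim genes (0.57, 0.0529) and with a control measure of RNA quality, the Gapdh 3' minus 5' difference, as a covariate (0.52, 0.142). The difference from its fibroblast slope was 0.75 (95% interval 0.15 to 1.35, adjusted p = 0.278). With adipocyte, endothelial and mast cell scores added, that difference was 1.04 (adjusted p = 0.0268) and the fibroblast slope -0.54 (adjusted p = 0.0365, against -0.18 and 0.583 without them). C5ar1 had joint slopes of -0.01 on macrophages (adjusted p = 0.971) and 0.07 on fibroblasts (0.64). Its second probe set, which correlated with the first at 0.72, had a macrophage slope of 0.21 in the joint fit (adjusted p = 0.114), and alone 0.25 (adjusted p = 2.32e-06), so the 2 probe sets of this dim gene differ in the single-score call. C4a/C4b had a macrophage slope of -0.31 (adjusted p = 0.268) and a fibroblast slope of 0.37 (adjusted p = 0.118).

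**Figure D3:**
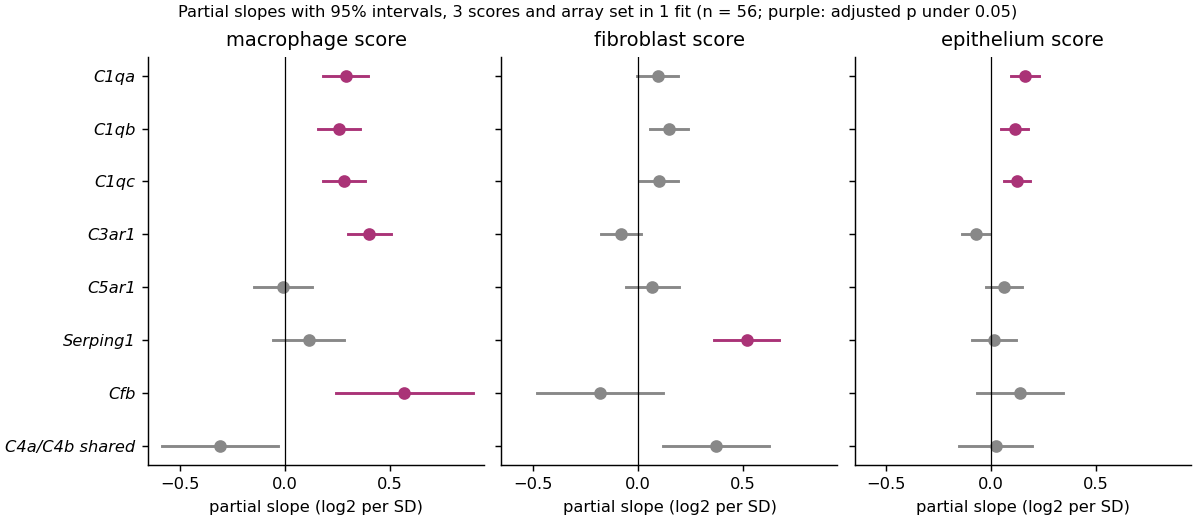
Partial slope of each member (points, log2 per SD of the score) with its 95% interval on the macrophage, fibroblast and epithelial scores in 1 fit with array set, n = 56 tumours; purple marks a limma adjusted p under 0.05. Macrophage slopes were called for the C1q chains, C3ar1 and Cfb, the fibroblast slope for Serping1 alone, and small epithelial slopes for the C1q chains.

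Beside the 3 scores, an interferon response score and a neutrophil score were each added in turn. Cfb, whose gene is known to be induced by interferon, rose with the interferon score by 0.33 log2 per SD (SE 0.08, limma adjusted p = 0.0167), the 1 member of 8 called, against 1.1% of all genes called higher. In array set 1 alone the slope was 0.35 (adjusted p = 0.0985). The correlation of Cfb with this score was r = 0.571 and rho = 0.573 (permutation p = 1e-05 for both, adjusted 3.38e-05 and 3.83e-05), 0.596 without 2 tumours and 0.613, 0.599 and 0.665 within the sets. The endothelial score moved with Cfb as well, at r = 0.632 and rho = 0.571 (permutation p = 1e-05 and 2e-05, adjusted 3.38e-05 and 7.33e-05), 0.667 without 2 tumours and 0.617, 0.607 and 0.572 within the sets. The part of the endothelial score in the interferon slope was not tested. The endothelial list held 9 genes, with a median pairwise correlation of 0.44. Flt1 went against the rest of the list (r = -0.24) and Kdr followed it weakly (0.24), while the others had 0.56 to 0.79. Cfb and the interferon score lay on the same side of their medians in 44 of 56 tumours, against 40 for Cfb and the macrophage score. On the neutrophil score, Serping1 was the 1 member called (0.17, SE 0.04, adjusted p = 0.0138), against 1.04% of all genes called higher. C5ar1, whose receptor is abundant on neutrophils, had a slope of 0.10 (SE 0.03, adjusted p = 0.0923). Its correlation with the neutrophil score was r = 0.472 and rho = 0.482 (permutation p = 0.00021 and 0.00022, adjusted 0.000544 and 0.000625), 0.483 without 2 tumours and 0.389, 0.313 and 0.190 within the sets. C5ar1 had a higher correlation with the mast cell score, r = 0.531 and rho = 0.543 (permutation p = 4e-05 and 7e-05, adjusted 0.00013 and 0.00022), 0.515 without 2 tumours and 0.531, 0.173 and 0.297 within the sets. With the endothelial score it had r = 0.476 and rho = 0.431 (permutation p = 0.00026 and 0.00108, adjusted 0.000654 and 0.00272), 0.426 without 2 tumours and 0.376, 0.197 and 0.429 within the sets. The neutrophil list rested on 6 of 8 genes, led by S100a9 and Ngp. Ngp, Camp and Mmp9 had means of 4.97, 4.73 and 5.28, below the median of all values, 5.42, and the others 5.74 to 9.79. Csf3r and Mmp9 followed the rest of the list weakly, at r = 0.48 and 0.44. The mast cell list rested on 5 of 6 genes. Mcpt4, Tpsb2 and Hdc had means of 5.3, 5.1 and 5.2, below that median, while Cma1 and Cpa3 had 5.9 and 6.0. Hdc followed the rest of its list at r = 0.33, the others at 0.83 to 0.92.

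**Figure D4:**
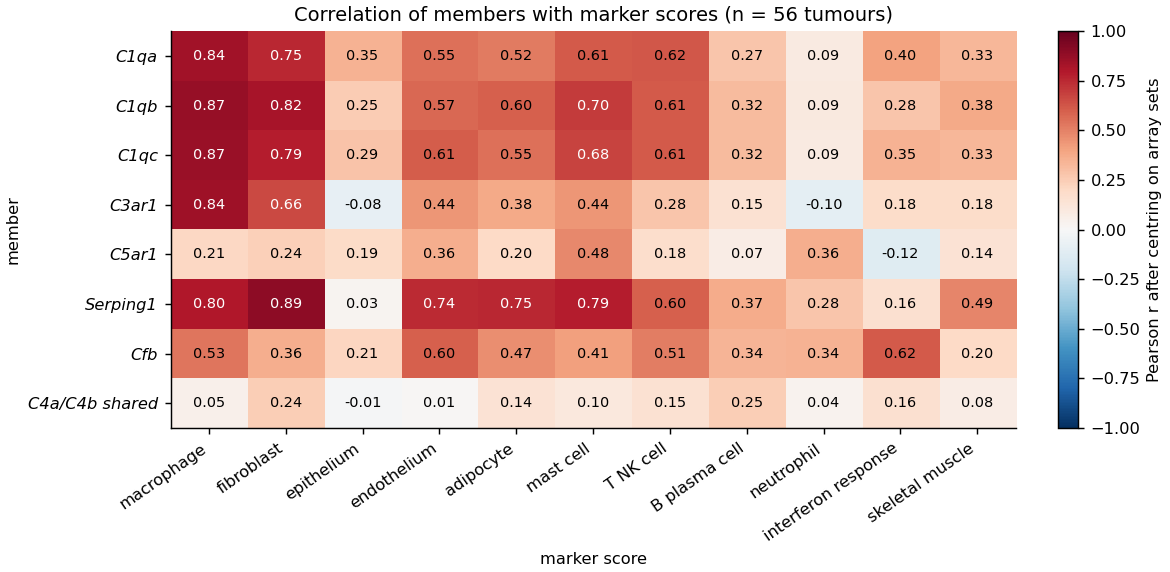
Pearson correlation of each member (rows) with 11 marker scores (columns) after centring on array sets, n = 56 tumours. The C1q chains and C3ar1 reached 0.84 to 0.87 with macrophages, Serping1 0.89 with fibroblasts and Cfb 0.62 with interferon response, while the highest for C4a/C4b was 0.25. Other scores came close: the C1q chains had 0.75 to 0.82 with fibroblasts, Serping1 0.80 with macrophages and 0.79 with mast cells, and Cfb 0.60 with endothelium.

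The members were also compared with each other. Of 28 pairs, 16 were called in both directions of the fit, all with a positive slope. Of all genes, 16.6% were called higher with the level of C1qa, 15.6% with C1qb, 16.3% with C1qc, 10.9% with Cfb, 12.9% with Serping1, 6.37% with C3ar1, 3.49% with C5ar1 and 3.02% with C4a/C4b. C1qa and C1qb had r = 0.965 (rho 0.957), C1qb and C1qc 0.961 (0.941) and C1qa and C1qc 0.932 (0.916), with 0.901 to 0.948 after leaving out 2 tumours and 0.926 to 0.987 within the sets. Each had permutation p = 1e-05, adjusted over 28 pairs 2.55e-05 for r and 3.5e-05 for rho. Serping1 went with C1qa at r = 0.778 and rho = 0.815 (same p), and at 0.735, 0.761 and 0.728 within the sets. None of the 7 pairs with C4a/C4b was called. The receptors C3ar1 and C5ar1 had r = -0.036 and rho = 0.002 (permutation p = 0.795 and 0.989, adjusted 0.795 and 0.989) with each other, and 0.000, 0.369 and 0.571 within the sets. This pair rests on the C5ar1 probe set with the highest mean. After centring on array sets, that probe set had r = 0.21 with the macrophage score, against 0.64 for the other C5ar1 probe set. Whether the other moves with C3ar1 was not tested.

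Over the whole table, the genes most like each C1q chain, by Pearson r over the 56 tumours after centring on array sets, were the other 2 chains at 0.963 to 0.972. Next came Pld4, a lysosomal exonuclease of myeloid cells, at 0.908, 0.935 and 0.944 for C1qa, C1qb and C1qc. C1qa and C1qc then shared Cd74 (0.884 and 0.876), the invariant chain of MHC class II, and the class II gene H2-Ab1 (0.883 and 0.881), while C1qb had Rab3il1 (0.888) and the inhibitory receptor gene Pirb (0.874). C3ar1 was most like Plek (0.841), Ms4a6d (0.836), the receptor gene Tlr13 (0.827), the Fc receptor chain Fcer1g (0.817) and Evi2a (0.814). Serping1 was most like C1ra (0.925) and C1s1 (0.908), the genes of the proteases that its product inhibits, then Pi16 (0.906), the fibroblast marker Dcn (0.904), which codes for the matrix protein decorin, and Pcolce (0.901), an enhancer of collagen processing.

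Cfb had lower values with its nearest genes, Apol7a (0.832), Chpt1 (0.830), Nampt (0.760), Naip2 (0.759) and Cd82 (0.759). C4a/C4b was nearest to Ppm1m (0.710), Cpsf4l (0.707), Ikzf1 (0.667), Cnp (0.656) and Paqr6 (0.635). C5ar1 was nearest to Rtn4ip1 (0.683), Mroh2a (0.630), Ykt6 (0.627), Psmb2 (0.625) and Prcp (0.615).

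Of 43 other genes of the cascade, 34 had a probe set of their own and 19 passed the filter on low values. Taken 1 score at a time, 15 of the 19 rose with macrophages and 15 with fibroblasts, against 13.6% and 13.4% of all genes. In the joint fit 3 of the 19 rose with macrophages and 0 fell (2.77% of all genes were called in either direction). They were the complement receptor integrins Itgax (0.40, limma adjusted p = 5.08e-09) and Itgb2 (0.39, 5.88e-07) and C2, a protease of the classical pathway (0.27, 0.0298). With fibroblasts 5 rose and 0 fell (2.42% of all genes): C1s1 (0.52, adjusted p = 2.16e-05), C1ra (0.39, 6.45e-05), the adhesion protein and complement regulator Vtn (0.33, 0.00465), the lectin pathway protease gene Masp1 (0.26, 0.00727) and the ficolin gene Fcna (0.42, 0.0175), the last of which falls outside the naming rule and was chosen after its value was seen. With epithelium Itgax rose (0.16, adjusted p = 0.000107), while C6, of the lytic complex, fell by 0.11 (0.0341) and Cd93, first described as a C1q receptor, by 0.12 (0.0387), and 14% of all genes were called in either direction. The slopes on macrophages and fibroblasts differed for Itgax alone (0.53, adjusted p = 4.85e-05). Median slopes of the 19 were 0.11 on macrophages, 0.08 on fibroblasts and -0.02 on epithelium. C1ra and C1s1 encode the proteases that join C1q in the C1 complex, and they were called with Serping1 on fibroblasts while the C1q chains were called on macrophages. For these 6 genes the difference between both slopes did not pass (adjusted p from 0.241 to 0.693).

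**Figure D5:**
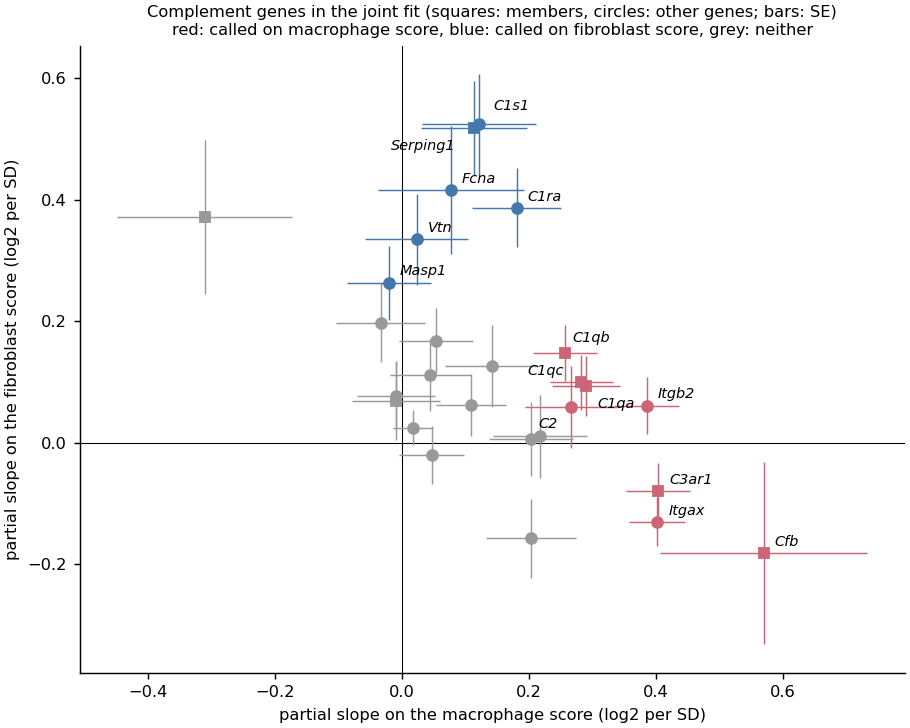
Partial slope on the macrophage score (horizontal axis) against that on the fibroblast score (vertical axis), both log2 per SD, for 8 member features (squares) and 19 other complement genes (circles), with bars of 1 SE, n = 56 tumours. Red marks a call on the macrophage score (Itgax, Itgb2, C2, the C1q chains, C3ar1 and Cfb), blue a call on the fibroblast score (C1s1, C1ra, Fcna, Vtn, Masp1 and Serping1).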

How the data were processed

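Biotin-labelled total RNA of mammary tumours was run on Affymetrix arrays, per the labels' protocols. The deposited values are RMA values, read as log2 from their range of 1.68 to 14.57, per the submitters' processing notes, which give no version, scale or joint normalisation. Of 45101 probe sets, the platform annotation given lists 34958 with 1 gene, 932 with several and 9211 not at all. Only the probe set shared by C4a and C4b was used among those with several.

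The probe set with the highest mean stood for a gene. Genes entered the tests where their 95th percentile exceeded 5.42, the median over the table. Array sets are splits of the arrays shared exactly by 20 or more probe sets on 10 or more chromosomes (Ashman's D over 4.5). They were found from the values and are not the study's groups.

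Slopes came from limma 3.58.1 (lmFit and eBayes, R 4.3.3) over all genes with array set as a block, leaving out the score's own genes, with Benjamini-Hochberg adjusted p at 0.05. Permutation tests were two-sided with 1e+05 draws and did not keep the array sets. Fits were tested on simulated data with independent noise for each gene and no differences between array sets, unlike these data. The members, the 12 marker lists (114 genes) and the tests were chosen with earlier results of these data known. The liver list had 1 measured gene and gave no score. Named were all members, the 5 genes most like each, up to 4 other complement genes per score and direction by the fit's t, and up to 4 markers per list. Markers were taken by their correlation with the rest of the list. Epcam, Elf3 and some markers of the endothelial, mast cell and neutrophil lists were named outside that rule. Replicates are 56 tumours with an animal number each. The number of arrays limits the precision. Alternatives were another probe set, other filters, no block, array set 1 alone, all 68 arrays, a Gapdh covariate, every second gene of each list and tumours left out.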

Additional observations from a re-analysis of the deposited data

How the results depend on the processing

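Of 728 slopes of the members under other settings, 702 kept their side of the threshold, 15 gained a call, 11 lost one and 0 reversed with a call. Among those 702, 36 changed sign with neither value called. The calls lost were those of Cfb, given above or on the fibroblast score alone, and the slope difference of C3ar1. Of the calls gained, 9 were of C5ar1. Counts over all genes moved more. Without array set in the fit, calls rose from 1445 to 5320 for epithelium alone, from 1756 to 5724 for epithelium in the joint fit, from 347 to 683 for macrophages in the joint fit, from 159 to 369 for interferon, from 295 to 479 for neutrophils and from 56 to 114 for the macrophage minus fibroblast difference. In array set 1 alone, with 39 arrays, they fell from 3022 to 1894 for macrophages alone, from 2950 to 1535 for fibroblasts alone and from 295 to 36 for neutrophils. With every second gene of each list they were 619 for macrophages, 662 for fibroblasts (304 with the full lists) and 170 for the difference. The Gapdh covariate gave 192 for macrophages in the joint fit. Leaving out the 2 tumours farthest on each score gave 216 for macrophages and 34 for the difference. All 68 arrays gave 86 for the difference and 650 for neutrophils. Those arrays came from 66 animals, and the 2 arrays each of animals 3296 and 3351 were fitted as separate samples. The adipocyte, endothelial and mast cell covariates, added after seeing the data, gave 141 for the difference. The 16 called pairs stayed between 14 and 20. The cause of these shifts was not tested. No paired analysis was possible because there is 1 group and replicate numbers pair no samples. Dim features such as C5ar1 lie near the median of all values, and macrophage and fibroblast scores share much of their variation, which widens the errors of the joint slopes.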
